A study of Mus musculus with 24 samples.

Results

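Retinoid uptake and metabolism was followed through 8 genes, Rbp2, Bco1, Isx, Lrat, Rdh7, Aldh1a1, Retsat and Rarb, in RNA from the distal jejunum of mice. They were taken by gene symbol from the deposited count and FPKM tables, and they are 8 of the 34471 genes with a count in any library. All 8 reached 10 counts in 3 or more of the 24 libraries and so entered the fit. Vitamin A is eaten as retinyl esters from animal food or as carotenoids from plants. The esters are split before uptake, and the enterocyte, the absorptive cell of the villus, takes up retinol and carotenoids. The cell binds retinol to RBP2, its cellular retinol-binding protein, and LRAT attaches a fatty acid so that the ester leaves in chylomicrons. BCO1 cleaves beta-carotene to retinal, while the homeobox repressor ISX holds Bco1 down in the intestine when retinoic acid is plentiful. Retinol dehydrogenases such as RDH7 oxidize retinol to retinal and ALDH1A1 oxidizes retinal to retinoic acid, the ligand of the nuclear receptor RARB and its relatives. RETSAT saturates retinol to dihydroretinol.

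The study asked whether PTK6, an intracellular tyrosine kinase of differentiated epithelium, acts differently in the sexes, at rest and after succinate, a microbial metabolite that tuft cells sense and answer by starting a type 2 immune response. The 8 groups were male wild type, male Ptk6-/-, female wild type and female Ptk6-/- mice, each on regular water (control) or on 100 mM succinate in the drinking water for 7 days, with 3 mice per group. All mice were on the C57BL/6 background and came from different litters of 1 colony at an age of 9 to 11 weeks. The knockout is a germline deletion carried by every cell, so an effect of Ptk6 loss in the epithelium and one in other cells are not separated. Poly(A) RNA was sequenced from whole distal jejunum, and levels are given as CPM, counts scaled to library size after TMM normalization, unless stated.

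Total counts ran from 8080321 to 52824743 per library, and Ptk6 itself had 284 to 2405 counts in wild type libraries against 7 to 61 in Ptk6-/- libraries. A group of 3 libraries stood apart from the rest. Male wild type control 1 had 51.2% and male Ptk6-/- succinate 1 had 29.7% of its counts in the ribosomal RNA gene Rn18s-rs5, against 0.108% to 4.49% in the other libraries. The library labelled female wild type succinate 2 had 2291 Y-linked counts, where the other female libraries had at most 42, and 17155 CPM of heart muscle genes (7 of 7 found), where the other 23 libraries had at most 214. The enterocyte markers, 15 of 15 found, summed to 22657 to 64094 CPM with no marker at 0 in any library. Of 6 distal small intestine markers none was at 0 in any library, while up to 4 of 7 proximal markers were.

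Levels differed widely between the genes. On the per-length scale (FPKM, median over 24 libraries), Rbp2 stood at 395, Isx at 53.8, Aldh1a1 at 14.3, Retsat at 9.35, Rdh7 at 9.31, Lrat at 1.33, Bco1 at 0.732 and Rarb at 0.0605. Retsat and Rdh7 lay side by side in this order, with ranges of 1.76 to 14.6 and 0.378 to 37.6 that overlapped. The genes also differed in how far their CPM spread over all 24 libraries. The coefficient of variation was 26.7% for Retsat and 29.4% for Isx, but 74.3% for Rdh7, 83.8% for Rbp2 and 89.3% for the low Rarb.

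**Figure D1:**
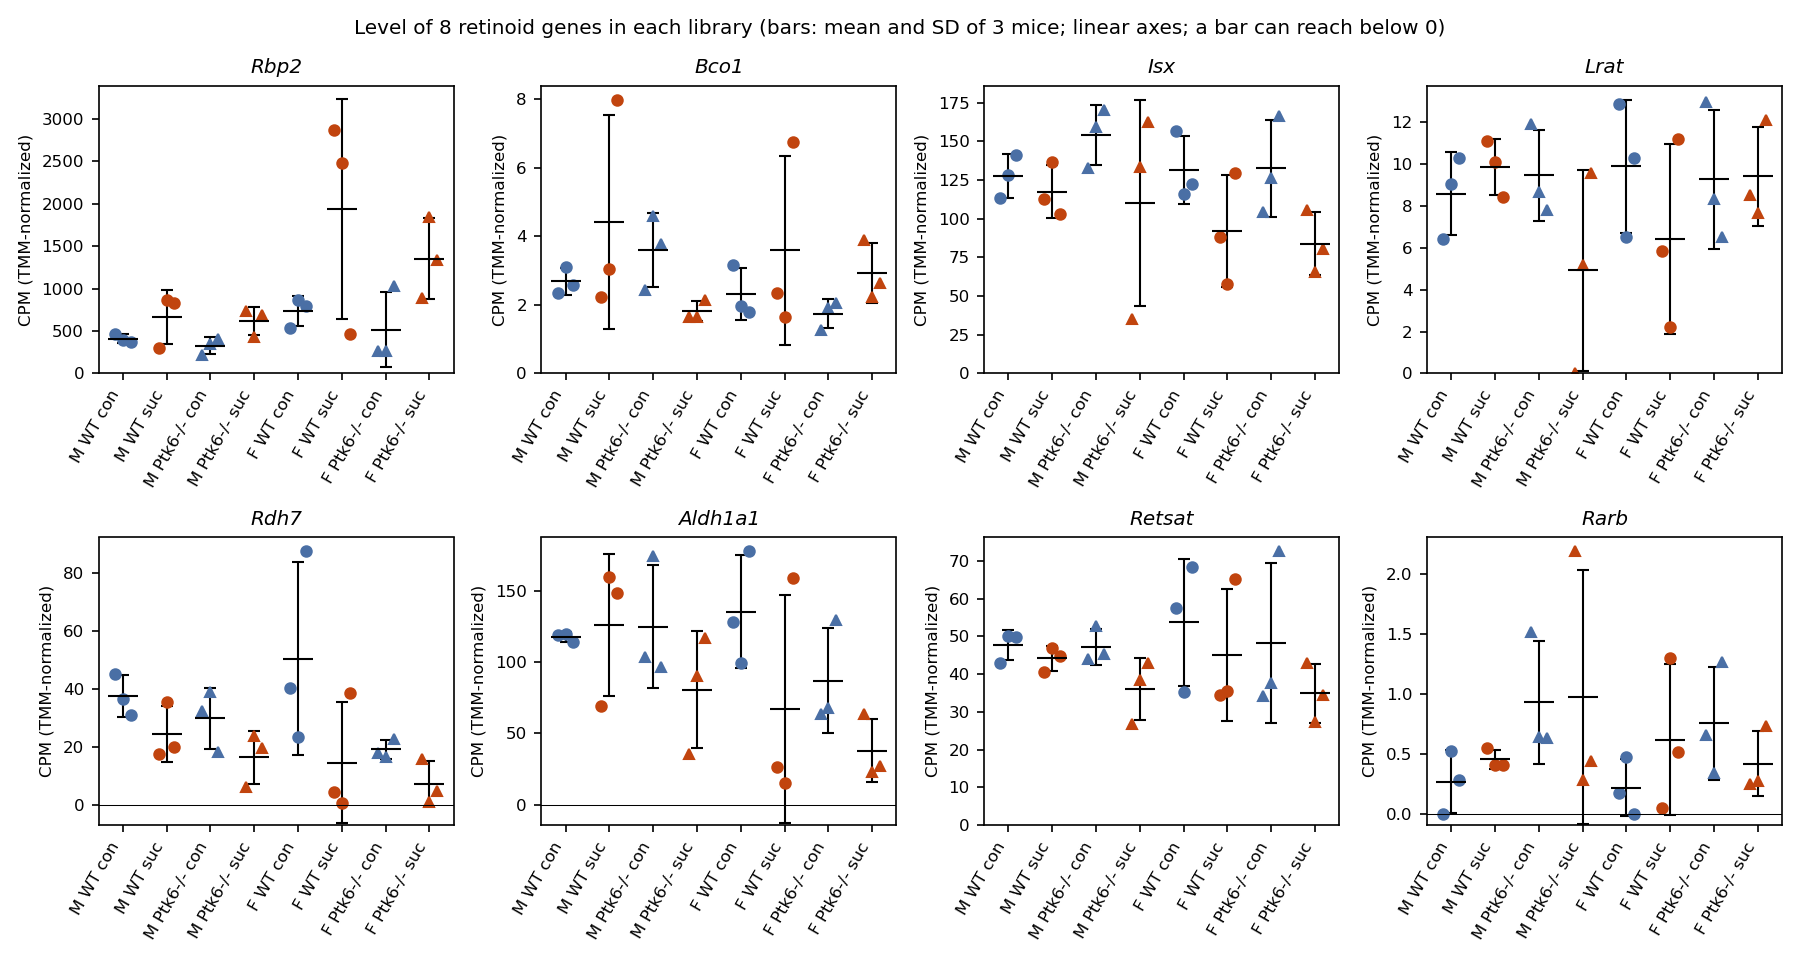
TMM-normalized CPM (linear axes) of 8 retinoid genes in 24 libraries, by sex (M, F), genotype (WT, Ptk6-/-) and treatment (con, suc); each point is 1 mouse, and the bars are the mean and SD of 3. Rbp2 reached 2871 and 2478 CPM in 2 of 3 libraries of succinate-treated wild type females, while Rdh7 was lowest, at 0.908 CPM, in female wild type succinate 2.

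No gene of the 8 was called in any of 12 comparisons by edgeR's quasi-likelihood test, where a call needed a Benjamini-Hochberg adjusted p under 0.05 over all genes tested and a change of at least 2-fold. The share of all genes called was 0.739% for genotype in control males, 0.0158% for genotype in control females and 0.0879% for succinate in Ptk6-/- females. It was 0% for succinate in wild type males, in Ptk6-/- males and in wild type females, and 0% for each of 3 interactions. Over all 24 mice it was 0.0184% for genotype, 0.728% for succinate and 0.36% for sex. DESeq2 called 1 of the 8, Rbp2, for succinate and for sex averaged over 24 mice, and none in the other 10 comparisons. It was fitted without the count filter. In those 2 comparisons it called 340 and 321 genes, which is 1.57% and 1.48% of the 21694 genes that edgeR tested. Limma on log2(FPKM + 1) called none in any of the 12 comparisons, and left Rarb out since genes under a mean of 0.5 FPKM were not tested. Of all genes, limma called 126 for succinate in wild type males, 6 in Ptk6-/- males, 1 in wild type females and 33 in Ptk6-/- females. It called 3 for sex by genotype and, averaged over 24 mice, 70 for succinate and 2 for genotype.

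At an unadjusted p under 0.05, 4 of the 8 genes differed for succinate averaged over 24 mice, against 16.1% of all genes: Rbp2 was higher with succinate, and Rdh7, Isx and Aldh1a1 were lower. The same count was 1 of 8 for sex averaged over 24 mice (15.3% of all genes), 1 of 8 for genotype in control females (11.1%), 2 of 8 for succinate in Ptk6-/- males (7.75%), 1 of 8 for succinate in Ptk6-/- females (10.7%) and 1 of 8 for the interaction of genotype with succinate in males (3.8%). None of the 8 passed it for genotype in control males (25.2%) or averaged over 24 mice (13.4%), for succinate in wild type males (4.07%) and wild type females (7.77%), for the interaction in females (6.46%) or for that of sex with genotype (4.64%). None of the 8 had groups without overlap for succinate in wild type males and wild type females, where 8.77% and 13.3% of all genes did. For succinate averaged over 24 mice the 8 genes had a median log2 change of -0.31, against -0.0025 over all 21694 genes tested. For genotype it was -0.29 against -0.028, and for sex, male minus female, it was 0.23 against -0.028.

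**Figure D2:**
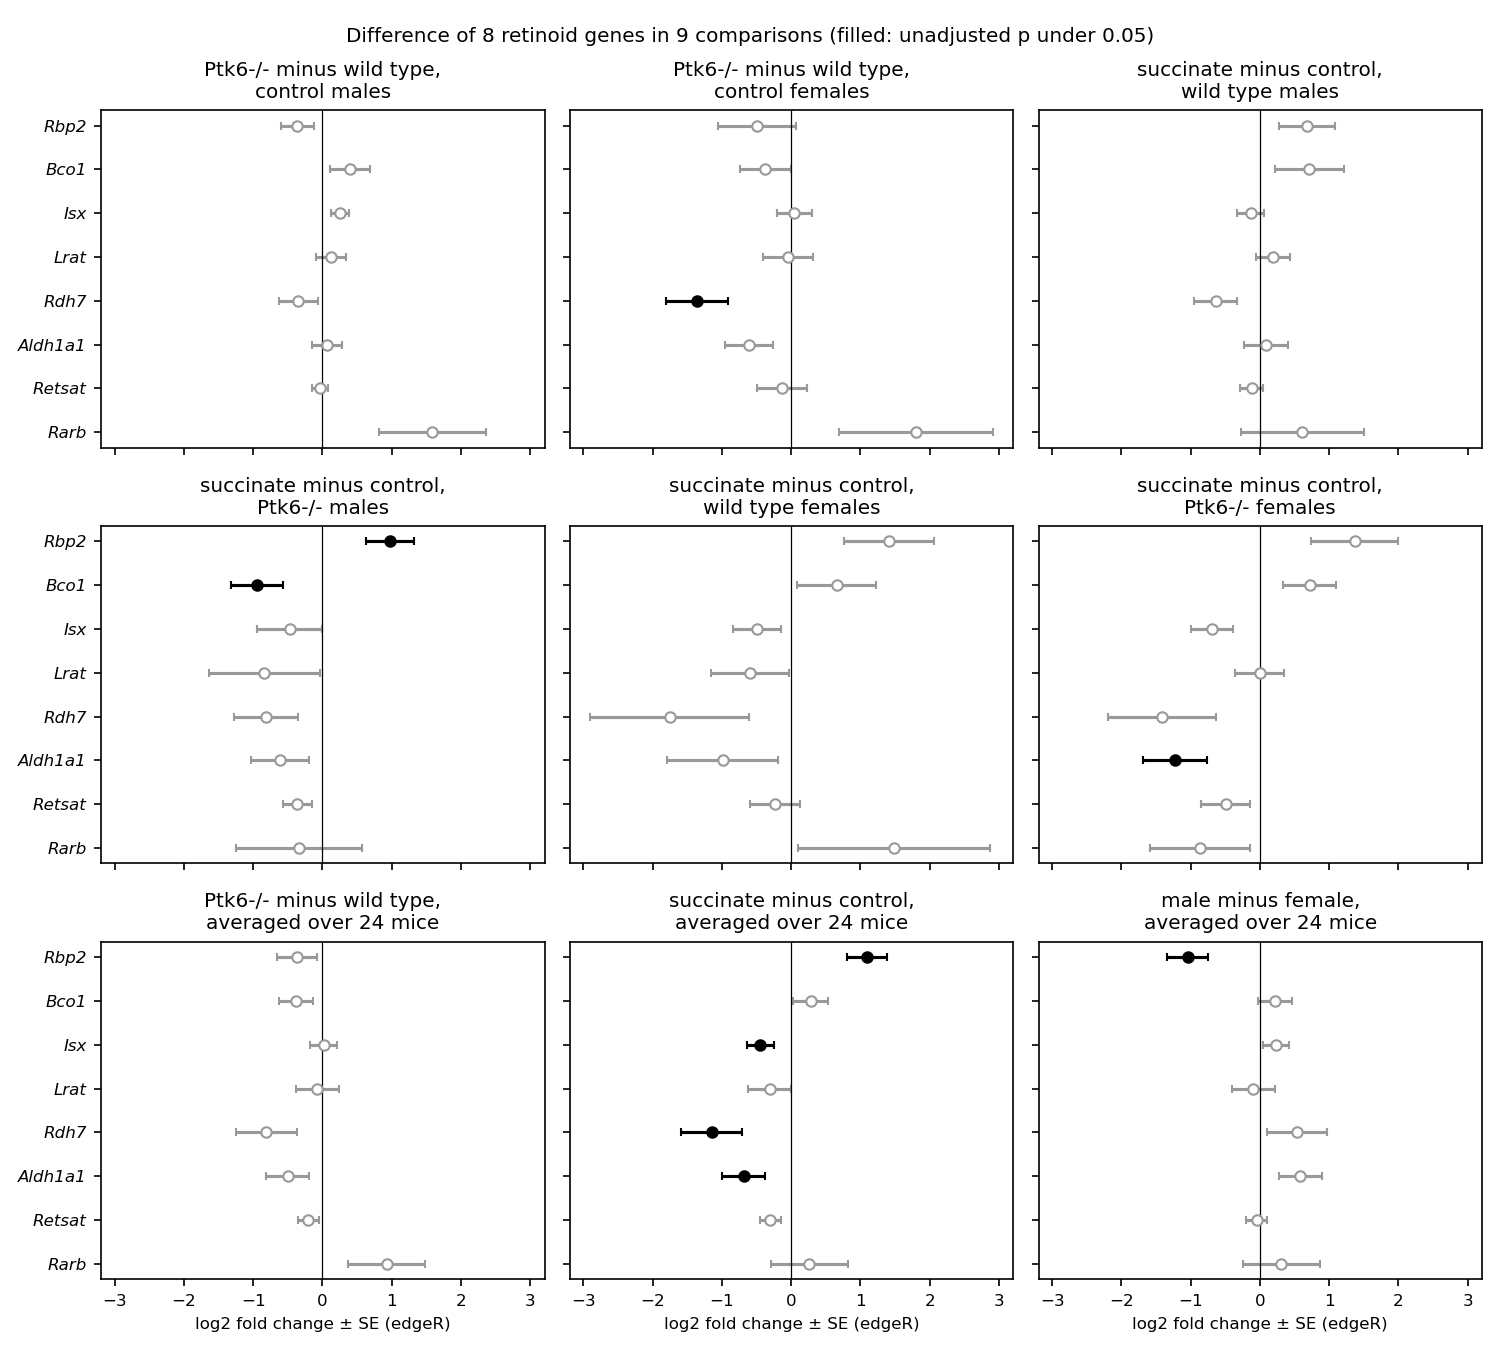
log2 fold change with its approximate SE (edgeR; horizontal axis) of 8 retinoid genes in 9 comparisons, 2 of genotype in controls, 4 of succinate within sex and genotype, and 3 averaged over 24 mice. Filled points have an unadjusted p under 0.05. Rbp2 lay above 0 in all 5 succinate panels and Rdh7 lay below 0 in all 5, and no point passed the adjusted threshold with a 2-fold change.

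Rbp2 (ENSMUSG00000032454, chr9:98368168-98391834, plus strand, GRCm39) was the most abundant of the 8. In succinate-treated wild type females it stood at 2871, 2478 and 462 CPM, against 540.3, 867 and 799.9 CPM in wild type female controls. In succinate-treated Ptk6-/- females it stood at 883, 1845 and 1331 CPM, against 262, 259 and 1028 CPM in their controls. So 2 of 3 treated wild type females lay far above every control and the remaining one lay below its controls, and in the Ptk6-/- females 1 control overlapped the treated range. The library at 2478 CPM was that labelled female wild type succinate 2, whose Y-linked counts go against its label, and without it 1 of 2 treated wild type females lay above the controls. In these bulk samples, fewer cells of a type and less RNA per cell cannot be told apart.

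In males no library exceeded 869 CPM of Rbp2. Wild type males had 295, 869 and 832 CPM on succinate and 470.0, 396 and 366 CPM on water. Ptk6-/- males had 731, 434 and 689.8 CPM on succinate and 217, 351 and 408 CPM on water. The treated and control ranges overlapped in wild type males and did not in Ptk6-/- males, where Rbp2, Bco1 and Retsat were the 3 of 8 genes without overlap, against 23% of all genes.

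Averaged over 24 mice, the log2 fold change of Rbp2 with succinate was 1.10 (SE 0.29, edgeR adjusted p = 0.0698), from mean CPM of 1143 in 12 treated and 497 in 12 control mice. Within groups it was 0.68 (SE 0.41) in wild type males, 0.98 (SE 0.35) in Ptk6-/- males, 1.41 (SE 0.64) in wild type females and 1.37 (SE 0.63) in Ptk6-/- females, with edgeR adjusted p from 0.484 to 0.947. In Ptk6-/- males the value was 0.50 with a gene length offset and 0.24 by limma on log2(FPKM + 1). The averaged difference was called without female wild type succinate 3 (1.22, edgeR adjusted p = 0.0067), without female Ptk6-/- control 3 (1.34, adjusted p = 0.0138) and without male wild type succinate 1 (1.19, adjusted p = 0.029). It was 1.05 (adjusted p = 0.126) without the library labelled female wild type succinate 2 and 1.05 (adjusted p = 0.204) without the 3 libraries that stood apart. Without female wild type succinate 3, the difference in wild type females was 1.91 (SE 0.34, adjusted p = 0.0406), and without male wild type succinate 1 that in wild type males was 1.00 (SE 0.17, adjusted p = 0.0134). These fits called 597 and 1077 of all genes, against 0 with every library. The averaged fit without female wild type succinate 3 called 539, against 158. Over all libraries left out in turn, the difference ran from 1.00 to 1.91 in wild type females, from 0.44 to 1.00 in wild type males, from 0.76 to 1.19 in Ptk6-/- males and from 1.05 to 2.36 in Ptk6-/- females, where the highest was without control 3.

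In the female libraries, marker sums of several other cell types and regions differed along with Rbp2, some upward and some downward. Tuft cell markers (10 of 11 found) summed to 396, 345 and 123 CPM in the wild type females on succinate and to 187, 403 and 403 CPM in the Ptk6-/- females on succinate, against 41.1 to 67.1 CPM in the 6 female controls. Smooth muscle markers (6 of 6 found) summed to 7649, 7441 and 3859 CPM and to 3695, 5150 and 4486 CPM in the same 2 groups, against 2057 to 4643 CPM in the female controls. Proximal small intestine markers (7 of 7 found, led by the lactase gene Lct) summed to 117, 83.1 and 573 CPM and to 305, 47.8 and 190.3 CPM, against 322 to 725 CPM in the controls. Distal markers (6 of 6 found) summed to 839, 481 and 2041 CPM and to 829, 483 and 415 CPM, against 1168 to 3657 CPM. Exocrine pancreas markers (5 of 6 found) summed to 62.3, 22.7 and 1.55 CPM and to 15.0, 54.2 and 22.0 CPM, against 0.574 to 1.35 CPM. Fibroblast markers (6 of 6 found) summed to 568 to 988 CPM in the 6 treated females and to 419 to 658 CPM in the female controls. Enterocyte markers summed to 22657 to 41393 CPM in the 6 treated females and to 28326 to 64094 CPM in the female controls. Goblet cell markers (8 of 8 found) overlapped widely, at 10818 to 22156 CPM in treated and 9742 to 26068 CPM in control females. So did leukocyte markers (7 of 7 found), at 104 to 141 CPM and 94.1 to 177 CPM. Female wild type succinate 3, the treated female with the lowest Rbp2, was the library of its group nearest the controls in the tuft, muscle, proximal, distal, pancreas and fibroblast sums. It also stood apart in lung markers (4 of 4 found), at 14.3 CPM against at most 0.717 CPM in the other wild type females, where the 6 Ptk6-/- females had 5.88 to 16.5 CPM and the males at most 0.342 CPM. In males, wild type succinate 1, the lowest of its group in Rbp2, had 25919 CPM of enterocyte and 1175 CPM of distal markers, while wild type succinate 2 and 3 had 51920 and 42823 CPM and 3194 and 3961 CPM, against 37267 to 40931 CPM and 2021 to 2639 CPM in their controls. Male Ptk6-/- succinate 1, the highest of its group in Rbp2, had 9546 CPM of distal markers, against 1216 to 2279 CPM in its controls. The part of these cell types and regions in the Rbp2 differences was not tested.

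Rbp2 was also the gene of the 8 that differed most between the sexes. For male minus female its log2 fold change was -1.04 (SE 0.29, edgeR adjusted p = 0.117), from means of 505 CPM in 12 males and 1136 CPM in 12 females. It was called without female wild type succinate 3 (-1.16, edgeR adjusted p = 0.014), where 427 of all genes were called, against 78. It was -0.99 (adjusted p = 0.188) without the library labelled female wild type succinate 2, whose Y-linked counts go against its label, and -0.79 without female Ptk6-/- control 3. With genotype, Rbp2 had a log2 fold change of -0.36 (SE 0.24) in control males, -0.49 (SE 0.56) in control females and -0.37 (SE 0.29) averaged over 24 mice, with edgeR adjusted p of 0.396, 0.766 and 0.562. In control females it was -1.45 (SE 0.27, edgeR adjusted p = 0.0275) without female Ptk6-/- control 3, at 1028 CPM, and -0.18 and -0.17 without female Ptk6-/- control 1 and 2. The fit without control 3 called 1808 of all genes, against 3 with every library. In Ptk6-/- female controls 1, 2 and 3 the enterocyte sum was 28326, 36660 and 64094 CPM and the distal sum 1168, 1619 and 3369 CPM, against 56182 to 61205 CPM and 2290.0 to 3657 CPM in wild type female controls, so that the library highest in Rbp2 was highest in both. The part of these cells in the genotype values was not tested. In control males the Rbp2 value was -0.14 without male Ptk6-/- control 1 and -0.55 without male Ptk6-/- control 3. Averaged over 24 mice it ran from -0.61, without female Ptk6-/- control 3, to -0.27, without female wild type succinate 1. In control males the sign of the Rbp2 value turned under the gene length offset (0.035) and by limma (0.049), which used FPKM without TMM normalization.

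Bco1 (ENSMUSG00000031845, chr8:117822593-117860459, plus strand, GRCm39), which makes retinal from beta-carotene, was low, with 6 to 331 counts per library. In Ptk6-/- males it stood at 1.65, 1.65 and 2.15 CPM on succinate against 2.44, 4.60 and 3.77 CPM on water, ranges that did not overlap. Bco1 had a log2 fold change of -0.95 (SE 0.38, edgeR adjusted p = 0.6). In Ptk6-/- females the order was the opposite, also without overlap, at 3.90, 2.23 and 2.65 CPM on succinate against 1.28, 1.91 and 2.05 CPM on water, with a log2 fold change of 0.72 (SE 0.38, edgeR adjusted p = 0.53). That value was 0.47 without female Ptk6-/- succinate 1 and 0.88 without female Ptk6-/- succinate 2. In Ptk6-/- females 3 of 8 genes, Bco1, Rdh7 and Aldh1a1, had no overlap, against 21.2% of all genes.

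In wild type mice a single library carried the higher Bco1 mean on succinate in each sex. Males had 2.22, 3.06 and 7.98 CPM against 2.35, 3.11 and 2.59 CPM on water, and females had 2.36, 1.65 and 6.75 CPM against 3.17, 1.97 and 1.79 CPM. The log2 fold changes were 0.71 (SE 0.50) and 0.66 (SE 0.57), and they became -0.052 without male wild type succinate 3 and -0.15 without female wild type succinate 3. The genotype by succinate interaction in males was -1.65 on the log2 scale (SE 0.66, edgeR adjusted p = 0.993), and it was -0.89 without male wild type succinate 3. Over all 24 mice, Bco1 had averaged log2 fold changes of 0.28 (SE 0.25) with succinate, -0.39 (SE 0.25) with genotype and 0.22 (SE 0.25) with sex, none with an edgeR adjusted p under 0.477. Without female wild type succinate 3 the succinate and genotype values were 0.072 and -0.18, and without male wild type succinate 3 the sex value was 0.037.

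The 250 bases before the RefSeq start of Bco1 are shown because they held a direct repeat of the kind bound by receptor pairs that include RXR, the partner of the retinoic acid receptors. Promoters were searched on both strands for 2 copies of AGGTCA or AGTTCA or GGGTCA or GGTTCA in the same direction with 1 to 5 bases between them, named DR1 to DR5 by the spacing. Bco1 had a DR1, read on the minus strand, at -56 to -44, which is in capitals in the window chr8:117095615-117095864 (plus strand, GRCm38.p6).
Bco1: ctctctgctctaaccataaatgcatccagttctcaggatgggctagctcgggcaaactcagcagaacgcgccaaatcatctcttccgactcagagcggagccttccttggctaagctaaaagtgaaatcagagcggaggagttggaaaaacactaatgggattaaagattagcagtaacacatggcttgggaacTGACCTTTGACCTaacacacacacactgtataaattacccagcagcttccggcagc
A DR1 in these letters was found in 0.164% of 32851 RefSeq promoter windows of the same length, and any of DR1 to DR5 in 0.524%. Of the 8 genes, the windows of Bco1 and Rarb held one. A match of letters is not a binding site.

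Isx (ENSMUSG00000031621, chr8:75599801-75620134, plus strand, GRCm39), the intestinal repressor of Bco1, varied less over the libraries than Rbp2, Rdh7 or Aldh1a1. Succinate-treated Ptk6-/- females had 106, 65.4 and 80.3 CPM against 105, 127 and 166 CPM on water, and treated wild type females had 88.2, 57.6 and 129.9 CPM against 157, 116 and 122 CPM. Most treated females thus lay below their controls, with 1 library of each group inside the control range. The 4 lowest treated females, at 57.6 to 88.2 CPM, were those with 345 to 403 CPM of tuft and 415 to 839 CPM of distal markers, and the part of these in the Isx values was not tested. In males, treated and control mice overlapped widely, at 103 to 137 against 113 to 141 CPM in wild type and 35.4 to 162 against 133 to 170.4 CPM in Ptk6-/- mice. The log2 fold change with succinate was -0.69 (SE 0.30, edgeR adjusted p = 0.471) in Ptk6-/- females and -0.44 (SE 0.19, adjusted p = 0.26) averaged over 24 mice. The averaged value was -0.29 without the 3 libraries that stood apart, among them male Ptk6-/- succinate 1 with the lowest Isx of all. With genotype Isx had a log2 fold change of 0.017 (SE 0.19), whose sign changed in 8 of 24 leave-one-out fits, and with sex 0.23 (SE 0.19), which ran from 0.14 to 0.35 over the libraries left out in turn.

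Lrat (ENSMUSG00000028003, chr3:82799886-82811280, minus strand, GRCm39), which makes the retinyl esters that leave in chylomicrons, had 0 to 712 counts per library. Control mice had 6.39 to 12.9 CPM in all 4 groups. The lowest values were in male Ptk6-/- succinate 1, with 0 counts in the shallowest library, and in the library labelled female wild type succinate 2, with 2.21 CPM. The other mice of these groups had 5.18 and 9.58 CPM and 5.83 and 11.2 CPM. Its averaged log2 fold change was -0.31 (SE 0.31) with succinate, -0.076 (SE 0.31) with genotype and -0.094 (SE 0.31) with sex, with edgeR adjusted p of 0.655 to 0.943. Without the 3 libraries that stood apart, the succinate value was -0.12, and it was -0.51 without male Ptk6-/- succinate 3 and -0.19 without male Ptk6-/- succinate 1. The 0 in male Ptk6-/- succinate 1 allows up to 3 counts, and so is not detectable expression at this depth and not an absence of the mRNA.

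Rdh7 (ENSMUSG00000040134, chr10:127719897-127724686, minus strand, GRCm39), a retinol dehydrogenase, ranged from 0.908 to 87.4 CPM. Wild type females had 4.46, 0.908 and 38.7 CPM on succinate against 40.3, 23.5 and 87.4 CPM on water. Ptk6-/- females had 16.0, 1.07 and 5.02 CPM on succinate against 18.1, 16.5 and 22.9 CPM on water. The 4 libraries with the highest Rbp2 were thus those with the lowest Rdh7, and in Ptk6-/- females the treated and control values did not overlap.

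In males the Rdh7 values overlapped between treatments. Wild type males had 17.7, 35.4 and 20.1 CPM on succinate against 45.2, 36.4 and 31.0 CPM on water, and Ptk6-/- males had 6.31, 23.8 and 19.6 CPM against 32.3, 39.0 and 18.5 CPM. The log2 fold change with succinate was -0.64 (SE 0.30) and -0.82 (SE 0.46) in the males and -1.76 (SE 1.15) and -1.41 (SE 0.78) in the females, wild type before Ptk6-/-, with edgeR adjusted p from 0.542 to 0.947. Averaged over 24 mice it was -1.15 (SE 0.44, edgeR adjusted p = 0.22). It was called without female wild type succinate 3 (-1.76, edgeR adjusted p = 0.00823), and was -1.01 (adjusted p = 0.261) without the library labelled female wild type succinate 2 and -0.88 (adjusted p = 0.419) without the 3 libraries that stood apart. In wild type females the value was -4.17 (adjusted p = 0.0548) without female wild type succinate 3 and -1.11 without female wild type control 3, the ends of the range over the libraries left out in turn. In Ptk6-/- females these ends were -2.66 without succinate 1 and -0.90 without succinate 2. In Ptk6-/- males they were -1.14 without succinate 2 and -0.49 without succinate 1, a library that stood apart, and in wild type males the value nearest 0 was -0.45, without control 1, and the farthest -0.9998, without succinate 2.

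Rdh7 was also the only one of the 8 to differ by genotype at an unadjusted p under 0.05, in control females. Ptk6-/- controls had 18.1, 16.5 and 22.9 CPM against 40.3, 23.5 and 87.4 CPM in wild type, without overlap, which was so for 1 of 8 genes and for 18.9% of all genes. For Rdh7 the log2 fold change was -1.36 (SE 0.45, edgeR adjusted p = 0.378), and -0.70 without female wild type control 3. In control males it was -0.35 (SE 0.28, edgeR adjusted p = 0.49), with a sign that turned by limma (0.049). Without male Ptk6-/- control 3 it was -0.092 and without male Ptk6-/- control 2 it was -0.58. Averaged over 24 mice it was -0.81 (SE 0.44, adjusted p = 0.411), and -0.20 without female wild type succinate 3. The difference between the sexes in the genotype effect was 1.01 on the log2 scale (SE 0.58, edgeR adjusted p = 0.999), and 0.35 without female wild type control 3.

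Rdh7 lies on chromosome 10 beside Rdh1, Rdh9, Rdh16, Rdh16f1, Rdh16f2 and Rdh19, genes of similar sequence between which reads can be split. In female wild type succinate 1, Rdh16f1 was listed with 1011 counts and Rdh9 with 60, where the other 23 libraries had 0 counts of Rdh16f1 and 124 to 5491 of Rdh9. Rdh7 made up 3.34% to 43% of the sum of the 7 genes. When they were summed, the 4 female libraries low in Rdh7 had 700 to 2428 counts and the other 8 female libraries had 3617 to 9212. The log2 fold change of the sum with succinate averaged over 24 mice was -0.73 (SE 0.25, edgeR adjusted p = 0.172), a check chosen after the data were seen. The Rdh7 values are uncertain to that extent.

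Aldh1a1 (ENSMUSG00000053279, chr19:20470079-20620829, plus strand, GRCm39), which makes retinoic acid from retinal, followed Rdh7. Wild type females had 26.6, 15.6 and 159 CPM on succinate against 128, 99.5 and 178 CPM on water. Ptk6-/- females had 63.3, 23.2 and 27.1 CPM on succinate against 63.6, 67.7 and 129 CPM on water. The treated Ptk6-/- females did not overlap their controls, though by a margin of 63.3 to 63.6 CPM, and in wild type females the third treated mouse lay among the controls.

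Male Aldh1a1 values overlapped, at 68.9, 159.9 and 149 CPM on succinate against 119, 119.9 and 114 CPM on water in wild type mice and 35.7, 89.9 and 117 CPM against 103, 174 and 96.5 CPM in Ptk6-/- mice. The log2 fold change with succinate was -1.23 (SE 0.47, edgeR adjusted p = 0.44) in Ptk6-/- females and -0.99 (SE 0.80, adjusted p = 0.793) in wild type females, and it was 0.086 (SE 0.32) in wild type males and -0.62 (SE 0.42) in Ptk6-/- males. Leaving out each library in turn gave -1.80 to -0.82 in Ptk6-/- females, -0.12 to 0.35 in wild type males and -0.94 to -0.30 in Ptk6-/- males, where -0.30 was without succinate 1, the library with 29.7% of its counts in Rn18s-rs5. Averaged over 24 mice it was -0.68 (SE 0.31, edgeR adjusted p = 0.291). Without female wild type succinate 3 it was called both in wild type females (-2.63, SE 0.37, edgeR adjusted p = 0.0234) and averaged (-1.10, SE 0.23, adjusted p = 0.00938), in fits that called 597 and 539 of all genes. In wild type females it was -0.52 without the library labelled female wild type succinate 2 and -0.61 without female wild type succinate 1. Without the 3 libraries that stood apart the value averaged over all groups was -0.47 (edgeR adjusted p = 0.529). The marker sums that differed along with Rbp2 did so with Rdh7 and Aldh1a1 in the same libraries, and their part was not tested.

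**Figure D3:**
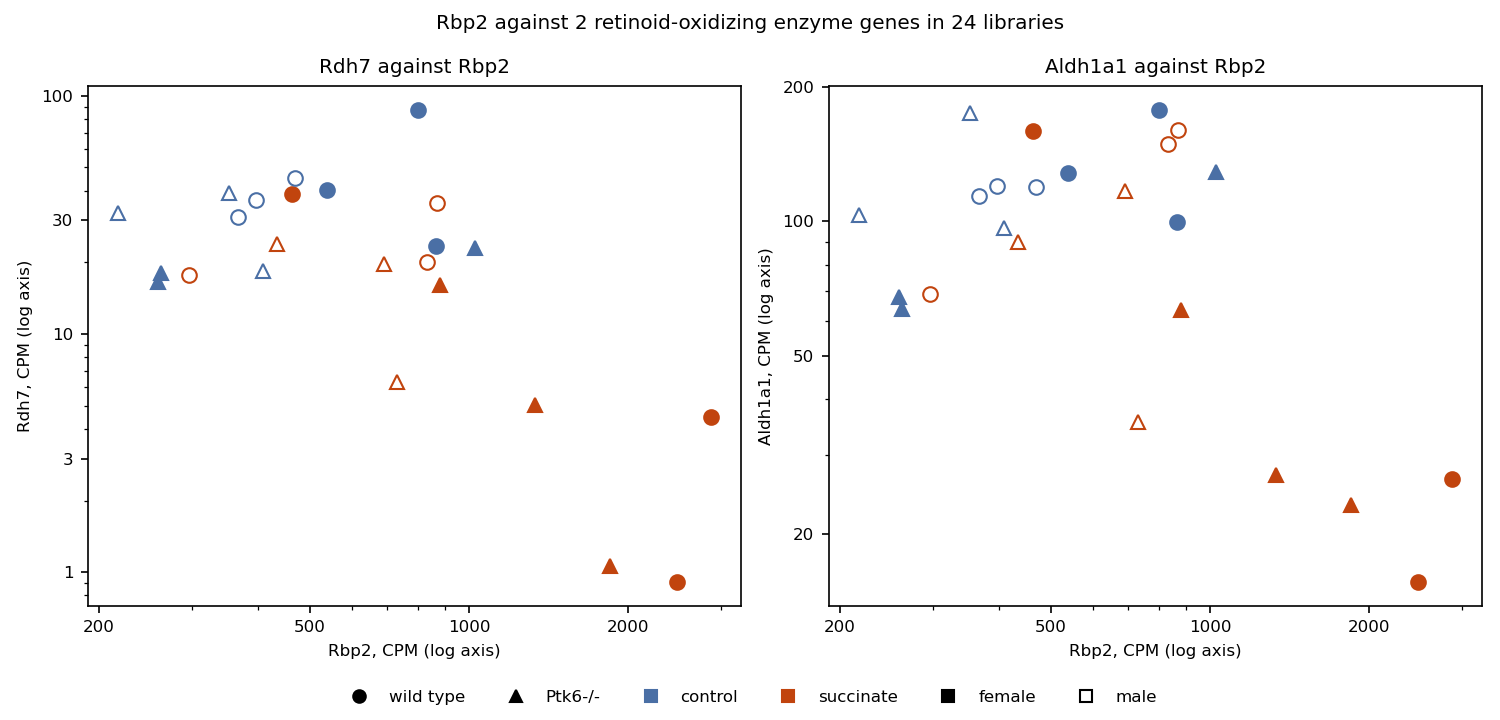
CPM of Rdh7 (left) and Aldh1a1 (right) against Rbp2, both axes logarithmic, in 24 libraries; circles are wild type, triangles Ptk6-/-, blue control, red succinate, filled female and open male. The 4 female succinate libraries with the most Rbp2 lie at the lower right, at 1331 to 2871 CPM of Rbp2, 0.908 to 5.02 CPM of Rdh7 and 15.6 to 27.1 CPM of Aldh1a1, while female wild type succinate 3 lies among the controls.

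Retsat (ENSMUSG00000056666, chr6:72575458-72585408, plus strand, GRCm39), the retinol saturase, varied least. Ptk6-/- males had 26.9, 38.4 and 42.9 CPM on succinate against 43.9, 52.6 and 45.2 CPM on water, without overlap by a margin of 42.9 to 43.9 CPM. The log2 fold change was -0.36 (SE 0.21, edgeR adjusted p = 0.615). It was -0.24 without male Ptk6-/- succinate 1, the library at 26.9 CPM with 29.7% of its counts in Rn18s-rs5. In the other groups the ranges overlapped, the highest single value being 72.6 CPM in female Ptk6-/- control 3. Its log2 fold change averaged over 24 mice was -0.30 (SE 0.15) with succinate, -0.21 (SE 0.15) with genotype and -0.044 (SE 0.15) with sex, with edgeR adjusted p of 0.329, 0.545 and 0.929. The succinate value was -0.20 without female Ptk6-/- control 3 and the genotype value -0.11 without female wild type succinate 3. The sign of the sex value changed in 5 of 24 leave-one-out fits and under the gene length offset (0.0080).

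Rarb (ENSMUSG00000017491, chr14:5650540-6038924, plus strand, GRCm39), a retinoic acid receptor whose own transcription is a known target of retinoic acid, was close to the limit of detection, with 0 to 83 counts per library and a median of 20. Ptk6-/- male controls had 83, 32 and 29 counts (1.52, 0.637 and 0.632 CPM) against 0, 30 and 14 counts (0, 0.521 and 0.284 CPM) in wild type. Ptk6-/- female controls had 28, 16 and 44 counts (0.661, 0.340 and 1.27 CPM) against 8, 22 and 0 counts (0.175, 0.475 and 0 CPM). The male ranges did not overlap, the case for 1 of 8 genes and for 31.4% of all genes, and the female ranges did.

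The log2 fold change of Rarb with genotype was 1.59 (SE 0.77, edgeR adjusted p = 0.245) in control males, 1.80 (SE 1.11, adjusted p = 0.561) in control females and 0.93 (SE 0.56, adjusted p = 0.453) averaged over 24 mice. Leaving out each library in turn gave 1.04 to 2.33 in males, 1.23 to 3.10 in females and 0.66 to 1.25 averaged. With succinate it was 0.26 (SE 0.55) averaged over 24 mice and -0.41 without the 3 libraries that stood apart, and with sex 0.31 (SE 0.55), which was 0.048 without male Ptk6-/- succinate 1. Rarb overlaps Top2b on the opposite strand, which had up to 3440 counts per library. The kit kept the strand, but whether the counting used it is not given in the sources used here, so the part of Top2b reads in these counts was not tested.

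The window before the RefSeq start of Rarb is shown because it held a DR5, the spacing that RAR and RXR pairs are best known to bind, at -53 to -37 (in capitals; chr14:16575477-16575726, minus strand, GRCm38.p6).
Rarb: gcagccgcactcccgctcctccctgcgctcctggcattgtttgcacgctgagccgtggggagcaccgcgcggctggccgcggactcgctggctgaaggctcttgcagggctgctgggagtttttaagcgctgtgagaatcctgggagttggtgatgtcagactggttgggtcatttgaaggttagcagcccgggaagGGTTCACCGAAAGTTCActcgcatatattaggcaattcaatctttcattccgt
A DR5 in these letters was in 0.0883% of the 32851 windows, while 1 or more copies of these 4 elements, alone, were in 38.6%. RefSeq gave windows for all 8 genes. That Lrat, Retsat, Isx, Rbp2, Rdh7 and Aldh1a1 had no repeat says only that these letters were not in those 250 bases.

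Within groups, many pairs of the 8 genes varied together from mouse to mouse. Over the 24 libraries, after the group means of log2(CPM + 1) had been removed, 16 of 28 pairs had a Pearson correlation with an adjusted p under 0.05 (permutation test with 100000 resamples, two-sided, Benjamini-Hochberg over 28 pairs). The deviations were shuffled over all 24 libraries, not within groups, and the removal of 8 group means was not allowed for. These p-values can thus be too small, and pairs near the threshold are uncertain. The strongest was Rdh7 with Aldh1a1 (r = 0.91, permutation adjusted p = 0.00014, rho = 0.87, adjusted p = 0.00014), where the permutation p is the smallest that the resamples can give, and r was 0.81 without the 2 libraries farthest from the median of Rdh7. Aldh1a1 with Retsat had r = 0.83 (permutation adjusted p = 0.00014, rho = 0.88), Rdh7 with Retsat 0.75 (adjusted p = 0.00028, rho = 0.78) and Isx with Aldh1a1 0.73 (adjusted p = 0.000513, rho = 0.72). Isx with Lrat had r = 0.82, which was 0.55 without 2 male Ptk6-/- succinate libraries, and rho = 0.50. Wherever libraries were left out of a correlation, the group means of all 24 libraries were kept. The left-out libraries thus still acted on the deviations of their groups, and these values do not remove them in full.

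Rbp2 went the other way. Its r was -0.51 with Rdh7 (permutation adjusted p = 0.0214, rho = -0.38 with adjusted p = 0.121) and -0.46 with Lrat (adjusted p = 0.0476, rho = -0.63 with adjusted p = 0.0048). Without female wild type succinate 3 and male wild type succinate 1, the 2 libraries farthest from the median of Rbp2, these were -0.37 and -0.37. Without the 3 libraries that stood apart they were -0.46 and -0.49 (permutation adjusted p = 0.0814 and 0.0741), and on log2(FPKM + 1) they were -0.30 and -0.21 (adjusted p = 0.275 and 0.524). On that scale the r of Rbp2 with Isx and with Retsat was 0.17 and 0.11, of the opposite sign. The FPKM were used as the authors gave them, without TMM normalization. Male wild type control 1, with 51.2% of its counts in Rn18s-rs5, had the highest Rbp2 of its group in CPM (470.0) and the lowest in FPKM (170). The part of this in the FPKM values was not tested. The repressor Isx and its target Bco1 had r = 0.40 (permutation adjusted p = 0.0833) and rho = 0.58 (adjusted p = 0.00955). Without the 3 libraries that stood apart, 8 of the 28 pairs had an adjusted p under 0.05, among them Rdh7 with Aldh1a1 (r = 0.87) and Aldh1a1 with Retsat (r = 0.82). These libraries share their depth and tissue composition across all genes, and the part of either in the correlations was not tested.

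**Figure D4:**
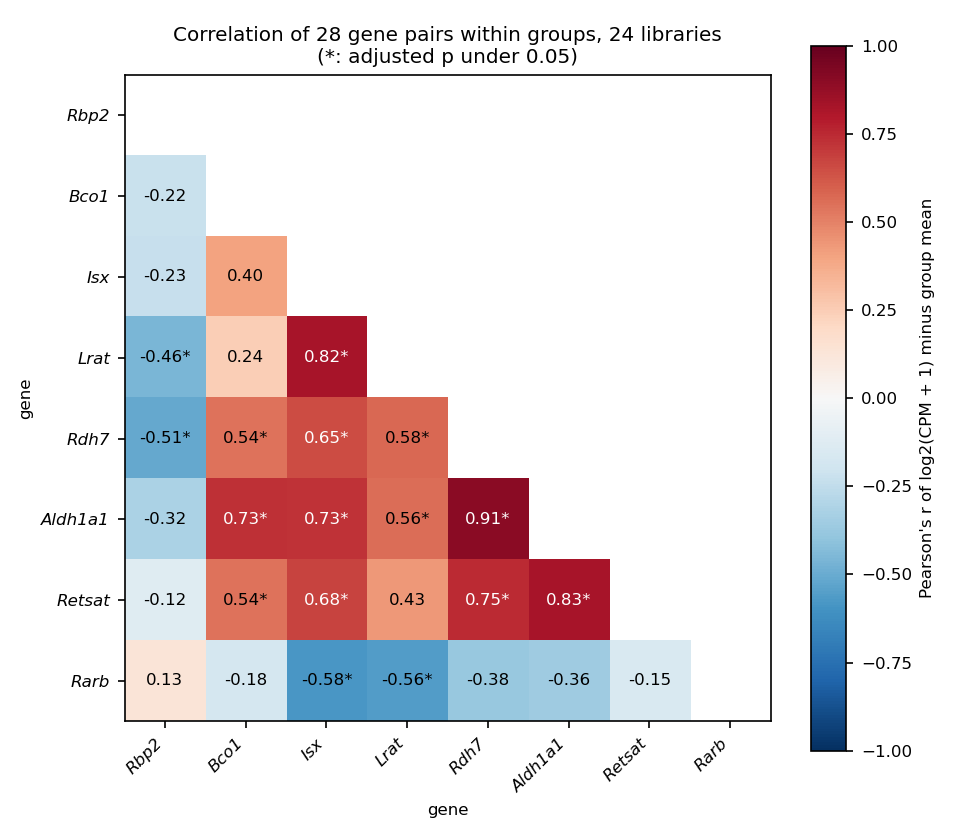
Pearson's r between 8 retinoid genes over 24 libraries, computed on log2(CPM + 1) minus the group mean; colour and number give r, and an asterisk an adjusted permutation p under 0.05. The 5 genes Bco1, Isx, Rdh7, Aldh1a1, Retsat have positive r with one another, from 0.40 to 0.91, and Rbp2 has negative r with all but Rarb.

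The genes whose CPM tracked each of the 8 most closely over the 24 libraries are given by Spearman's rho, as a description of libraries that share their depth and tissue. Those of Rbp2 were Ckb (0.947), Med21 (0.947) and Aldoa (0.946), and those of Rdh7 were Cyp2b10 (0.932), Slc5a11 (0.908) and Grin2a (0.903). Aldh1a1 was tracked by Cyp2d26 (0.938), its neighbouring paralog Aldh1a7 (0.901) and the peroxisomal enzyme gene Hsd17b4 (0.9). Retsat was tracked by Hsd17b4 (0.925), Cyp2d26 (0.924) and Aqp11 (0.879). Isx was tracked by Cldn23 (0.932), the microvillus protocadherin gene Cdhr2 (0.915) and Lpin3 (0.909). The values were lower for Lrat (Gtf2e1 0.832, Add3 0.81, Spidr 0.804), Rarb (Pptc7 0.796, Ccsap 0.743, Eif4g3 0.729) and Bco1 (Rundc1 0.735, Ilrun 0.705, Phospho1 0.703).

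Of 52 other genes of retinoid transport, oxidation, clearance and signalling, 51 were in the files and 47 were tested over the 24 libraries. A single call was made over the 12 comparisons, for Rbp7, a cellular retinol-binding protein gene, which was 1 of 44 tested for genotype in control males, where 0.739% of all genes were called. Ptk6-/- male controls had 4.05, 3.48 and 4.60 CPM of Rbp7 against 10.2, 8.10 and 7.61 CPM in wild type, a log2 fold change of -1.11 (SE 0.21, edgeR adjusted p = 0.0364). It was lost with the replicate block, the gene length offset and limma, and in some fits that left out 1 library, where the adjusted p ran from 0.0429 to 0.123. Without male wild type control 1, with 51.2% of its counts in Rn18s-rs5, the value was -0.93, short of 2-fold. For succinate averaged over 24 mice, 4 of the 47 genes were higher and 9 lower at an unadjusted p under 0.05, against 9.17% and 6.94% of all genes, with a median log2 fold change of -0.16. For genotype 3 were higher and 7 lower (5.83% and 7.52% of all genes), and for sex 6 were higher in males and 3 lower (6.63% and 8.65%).

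Among transport genes, Abca1, the sterol efflux pump, had a log2 fold change of -0.86 with succinate averaged over 24 mice (SE 0.20, edgeR adjusted p = 0.0428), short of 2-fold. Over the libraries left out in turn, the edgeR adjusted p of Abca1 ran from 0.0070 to 0.099. Lpl, lipoprotein lipase, had 1.61 (SE 0.50, edgeR adjusted p = 0.142), and 0.52 without the library labelled female wild type succinate 2, which held 1399 CPM of Lpl against at most 61.4 CPM elsewhere. It was called without female wild type succinate 3 (1.75, edgeR adjusted p = 0.0252).

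Among the oxidoreductases, Rdh14, Adh1 and Dhrs4 had the smallest p for genotype averaged over 24 mice, with log2 fold changes of -0.53 (SE 0.16), -0.59 (SE 0.19) and -0.39 (SE 0.13) and an edgeR adjusted p of 0.284 each. Of the retinoic acid synthesis genes, Aldh1a7 had -0.89 (SE 0.34, adjusted p = 0.22) with succinate, called at -1.51 (adjusted p = 0.000177) without female wild type succinate 3, and Aldh1a2 had -0.32 (SE 0.14, adjusted p = 0.275) with sex. Aldh1a3 had 0.48 (SE 0.25, adjusted p = 0.396) with genotype. Of the retinoic acid binding and clearance genes, Crabp1 had -0.77 (SE 0.38, adjusted p = 0.38) with genotype, Cyp26b1 had 0.14 (SE 0.34, adjusted p = 0.881) with sex, and Cyp26a1, the enzyme gene that retinoic acid is best known to induce, had at most 41 counts in any library.

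Of the receptors, Rxra had 0.39 (SE 0.11, edgeR adjusted p = 0.124) for male minus female and Rxrb had -0.20 (SE 0.10, adjusted p = 0.392) with genotype. Rxrg had 2.05 (SE 0.88, adjusted p = 0.262) with succinate, with 670 counts in the library labelled female wild type succinate 2 and at most 23 elsewhere. It ran from 0.47 without male Ptk6-/- succinate 3 to 3.38 without male Ptk6-/- control 3. Of the genes known to respond to retinoic acid, Nrip1 had 0.57 (SE 0.17, adjusted p = 0.14) for male minus female, Tgm2 had 0.50 (SE 0.15, adjusted p = 0.284) with genotype and Hic1 had 0.11 (SE 0.13, adjusted p = 0.721) with genotype. The Hic1 value was 0.028 without female Ptk6-/- control 3.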

How the data were processed

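RNA of 24 distal jejunum samples was sequenced from stranded poly(A) libraries. Reads were trimmed with Cutadapt, aligned with HISAT2 and assembled with StringTie by the authors, and the labels' processing notes name FastQC, StringTie and GRCm39. The deposited tables hold, per gene and library, raw read counts and the authors' FPKM. The program that made the counts and its strand setting are not given in the sources used here. Groups came from the sample labels. The members and all gene lists were chosen with earlier results of these data known.

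Counts were fitted with edgeR 4.0.16 (R 4.3.3; TMM, quasi-likelihood test, two-sided, Benjamini-Hochberg over all genes tested) in each comparison's own libraries, or in all 24 for averaged effects, on genes that reached 10 counts in 3 or more libraries. A call needed an adjusted p under 0.05 and a change of at least 2-fold. Fold changes are log2, and mean CPM is given over 3 mice per group. The SE is approximate, the absolute log2 fold change divided by the square root of the test's F, and is unreliable at very low counts. Of the other retinoid genes, those called and up to 3 per list with the smallest p in an averaged comparison were named, and for each member the 3 genes with the highest Spearman rho, leaving out Gm, Rik and unnamed genes. A result that this rule names is not reported here. Alternatives were DESeq2 1.42.0, DESeq2 size factors, no count filter, a replicate block, a gene length offset (lowess span 0.3), limma 3.58.1 on log2(FPKM + 1), the adjusted p alone and leaving out each library. Leaving out 3 libraries that stood apart and summing Rdh7 with its neighbours were chosen after seeing the data. The edgeR steps were tested on simulated data. Total counts were 8080321 to 52824743 per library. A count of 0 allows up to 3 counts, which covers counting error only. Promoter windows came from RefSeq (GRCm38.p6), and gene positions are as deposited (GRCm39). Correlations were computed in Python 3.11.15 with numpy 2.4.6.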

Additional observations from a re-analysis of the deposited data

How the results depend on the processing

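None of the 8 genes was called in the fits as reported. Counts of the 8 called under an alternative were 1 for succinate averaged over 24 mice (DESeq2, and no filter; 0 to 3 over the libraries left out in turn), 1 for sex averaged over 24 mice (DESeq2; 0 to 1) and, leaving out 1 library, 0 to 1 for genotype in control females and succinate in wild type males and 0 to 2 for succinate in wild type females. The fits with the highest of these counts also called the most genes of all. These were 1808 for genotype in control females (without Ptk6-/- control 3), 1077 for succinate in wild type males (without succinate 1) and 597 in wild type females (without succinate 3). Averaged over 24 mice they were 539 for succinate and 427 for sex, both without female wild type succinate 3. With DESeq2 Rbp2 had 1.12 (adjusted p = 0.00411) for succinate and -1.02 (adjusted p = 0.0186) for sex. Of the values for single genes and for correlated gene pairs, 1663 kept their sign and side of the threshold, 19 came to pass it, 20 no longer passed it and 32 changed sign.

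Counts of all genes called moved more. For genotype in control males, 142 became 307 with DESeq2, 813 on the adjusted p alone, 49 with the length offset and 2 to 211 leaving out 1 library. For genotype in control females, 3 became 169 (DESeq2), 5 (length offset) and 0 to 1808. For succinate in wild type males, 0 became 50 (DESeq2), 126 (limma), 2 (no filter) and 0 to 1077. In Ptk6-/- males, 0 became 36, 6, 2 and 0 to 2. In wild type females, 0 became 274 (DESeq2), 1 (limma) and 0 to 597. In Ptk6-/- females, 17 became 424, 33 and 0 to 29. For the interactions, 0 became 59 (DESeq2), 3 (no filter) and 0 to 5 in males, 57 (DESeq2) in females, and 13 (DESeq2) and 3 (limma) for sex by genotype. Averaged over 24 mice, 4 for genotype became 50 (DESeq2), 2 (limma), 1 (3 libraries left out) and 2 to 89. For succinate, 158 became 340, 70, 91 and 88 to 539. For sex, 78 became 321 (DESeq2) and 40 to 427. The cause was not tested.

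Replicate numbers did not pair the samples, since the 18 correlations of same-numbered deviations ran from -0.509 to 0.264 and 3 were over 0.1. With the replicate block the counts were 5 and 0 for genotype in control males and females, 4 for succinate in wild type females and 0 in Ptk6-/- females.

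Signs turned for Rbp2 in control males (length offset 0.035, limma 0.049), Rdh7 in control males (limma 0.049), Retsat with sex (length offset 0.0080), Isx and Lrat with genotype (limma -0.017 and 0.015), Rarb with succinate (-0.41, 3 libraries left out) and, on FPKM, the correlations of Lrat with Rarb (0.052), Rbp2 with Isx (0.17) and with Retsat (0.11) and Retsat with Rarb (0.018). Leaving out 1 library, ranges crossed 0 for succinate on Aldh1a1 (-0.12 to 0.35) and Bco1 (-0.052 to 1.00) in wild type males and Bco1 in wild type females (-0.15 to 1.00), for Cyp26b1 with sex (-0.049 to 0.33), Isx with genotype (-0.079 to 0.13), Lrat with genotype (-0.27 to 0.094) and sex (-0.29 to 0.076), Rarb with succinate (-0.031 to 0.58) and Retsat with sex (-0.10 to 0.070). The number of correlated pairs went from 16 to 8 without the 3 libraries, and 5 of 8 genes had the same highest group in FPKM. The cause was not tested. Of the 8 genes, Lrat and Rarb had libraries with 0 counts.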
